A study of Rattus norvegicus with 36 samples.

Results

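The sites described here are genomic regions of the rat hippocampus that were listed for both the glucocorticoid receptor (GR) and phosphorylated CREB (pCREB), compared with each other in rats given corticosterone. A site is a pair of a GR region and a pCREB region that overlap by at least 1 bp and overlap no other region of the opposite list. Of 5307 GR regions and 14722 pCREB regions, 20029 in all, 4227 of each formed such pairs. A further 26 GR regions and 16 pCREB regions lay in overlaps that joined several regions and were left out. For each pair the density of GR reads (reads per kb of region) was set against that of pCREB reads from the same chromatin.

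GR is a hormone receptor that moves to the nucleus when it binds a glucocorticoid such as corticosterone, the main glucocorticoid of rats, and there binds DNA directly or through other factors. CREB is a transcription factor bound to cAMP response elements, often close to gene starts, and its phosphorylation by kinases that respond to cAMP and calcium lets it recruit coactivators. In the hippocampus both factors are known for their part in memory formation, GR as a sensor of stress hormones and CREB as a mediator of activity-dependent transcription.

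All rats were male Sprague-Dawley animals. Each library came from a pool of chromatin from 4 hippocampi of 2 rats, fixed with 1% formaldehyde, and every pool was divided between an anti-GR antibody and an antibody to CREB phosphorylated at Ser133. The corticosterone rats gave 4 pools without training (2A to 2D) and 4 pools with training (4A to 4D), thus 16 libraries, and the vehicle rats gave 4 untrained pools (1A to 1D) and 4 trained pools (3A to 3D), which served as the control for treatment. The series has 36 samples, of which 4 are inputs that are not analysed here. Dose of corticosterone, kind of training and age of the rats, not given in the sources used here, remain unstated. Pools are the replicates, and each condition has a sequencing lane of its own (lane 6 for untrained and lane 8 for trained corticosterone pools), so that lane and condition cannot be told apart. The regions carry no gene names, and no gene annotation of their genome build (rn6) was used, so sites are named by position and the tissue label was not checked against marker genes.

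Reads counted at the 4227 pairs ranged from 85862 to 141092 per GR library (median 103172) and from 60688 to 195933 per pCREB library (median 144372). Per library, the median pair held 12 to 23 GR reads or 7 to 35 pCREB reads. The pCREB library was the deeper one in 7 of 8 pools, on average by 1.28-fold (log2 GR over pCREB -0.36 ± 0.53, SD, n = 8), which did not pass an exact two-sided permutation test (p = 0.102). Without pool 4A the depth difference was -0.51 on the log2 scale (exact permutation p = 0.0156). A pair of libraries stood apart: GR of pool 2B had peak calls at 279 of the pairs, against a median of 2885, with 27.3% of its reads in mitochondrial regions, and pCREB of pool 4A had 60688 reads and calls at 462 pairs, against a median of 3712. The main counts of sites are also given without these pools.

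The paired regions mostly covered the same stretch of DNA. Median widths were 421 bp for GR and 499 bp for pCREB regions, with a median overlap of 407 bp. The shorter region lay wholly inside the other in 2931 pairs (69.3%), and the pCREB region was the wider one in 3549 (84.0%). The smallest overlap was 42 bp, at chr20:3897409-3897730, where the log2 ratio was -0.42 (adjusted p = 0.413). Because the pCREB region was usually wider, all counts were scaled to region width before the antibodies were compared.

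At most shared sites GR and pCREB densities stood in nearly the same proportion. Of the 4227 pairs, 4136 had enough reads to be tested, and the other 91 had a median of 8 GR and 10 pCREB reads per library. The ratio lay within 1.5-fold of the typical site at 3797 tested pairs (91.8%), and the median log2 ratio was -0.01 with a median standard error of 0.19. GR was higher relative to pCREB at 227 pairs (5.49% of those tested) and pCREB was higher relative to GR at 125 (3.02%), together 352 (8.51%), by edgeR's quasi-likelihood test with the pool as a block and a Benjamini-Hochberg adjusted p under 0.05. Every GR library exceeded every pCREB library at 51 pairs (1.23%), and the reverse held at 19 (0.459%). The zero point is relative: the scaling sets the typical shared site to a ratio of about 1, so a site called higher for GR has more GR per pCREB than the others, and nothing is said about absolute occupancy. No input signal was subtracted, so the densities include any background reads, and a similar proportion is not a measure of similar binding. In pooled tissue, a factor bound in more cells and a factor bound more often per cell cannot be told apart.

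With the main width and library scaling, sites with higher GR reached larger ratios than sites with higher pCREB. The 227 pairs had a median excess of 1.91-fold (log2 0.93, quartiles 0.71 and 1.26, highest 3.19), and 93 of them were past 2-fold and 13 past 4-fold. For the 125 pairs with higher pCREB the median was 1.61-fold (log2 -0.68, lowest -2.11), with 21 past 2-fold and 1 past 4-fold. All 8 pools had the same direction at 135 of the 227 pairs and at least 7 pools at 200. For higher pCREB the numbers were 65 and 107 of 125. Among the 3784 uncalled pairs, counting either direction, they were 46 and 424. The same pools called the sites, so the agreement at called sites is largely set by the call. Without pools 2B and 4A the called pairs numbered 217 (5.19% of 4178 tested) and 104 (2.49%). Of these, 107 and 18 were past 2-fold and 13 and 1 past 4-fold. In these 6 pools every GR library exceeded every pCREB library at 72 pairs (1.72%), and the reverse held at 41 (0.981%). Fewer libraries are more easily free of overlap, so these 2 counts cannot be set against those from 8 pools.

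The split between directions depended on how region width and library totals entered. Library totals without the trimmed-mean (TMM) factors gave 178 pairs with higher GR and 188 with higher pCREB, and no width correction gave 354 and 396, so that the share of calls towards GR went from 64.5% to 48.6% and 47.2%. Applying widths only after the TMM factors gave 531 and 48 (91.7% towards GR) and moved the median log2 ratio of all tested pairs to 0.21. Among the pairs with closely similar widths (the wider region at most 25% wider than the other), 141 and 54 were called (72.3% towards GR), and DESeq2 called 166 and 67 (71.2%). No preponderance of one direction is therefore read from these counts. The sizes of the ratios above were not recounted under these settings, so none is read from them either.

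**Figure D1:**
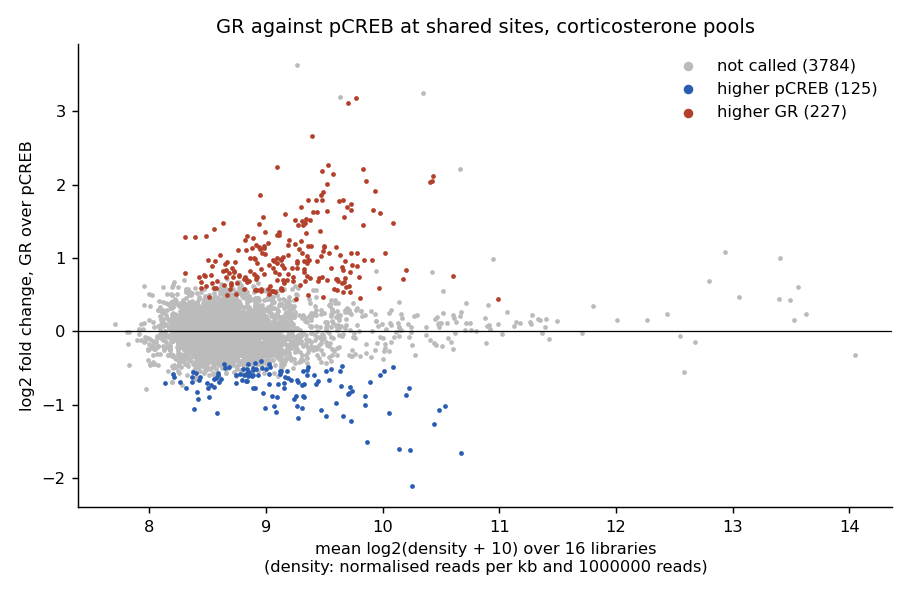
Log2 fold change of GR over pCREB (vertical axis) against the mean log2(density + 10) over the 16 corticosterone libraries (horizontal axis), 1 point per tested pair. The 227 pairs with higher GR extend to 3.19 and the 125 with higher pCREB to -2.11, while the 3784 uncalled pairs lie around 0, apart from a few uncalled pairs with ratios as large as the called ones.

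The 2 classes of called sites differed from the typical site in the antibody that gave them their name. Pairs with higher GR had a median GR density of 854 normalised reads per kb and 1000000 reads and a pCREB density of 413, close to the 406 of uncalled pairs. Pairs with higher pCREB had a median pCREB density of 691 and a GR density of 428, close to the 403 of uncalled pairs. Since the ratio chose these classes, the densities are a description.

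The 10 named sites with the largest GR excess are called G1 to G10. They were taken from 37 pairs that were called, had above-median signal, had no overlap between the GR and pCREB libraries and had widths within 1.5 times. At G1 (GR region chr10:68863412-68863783, pCREB region chr10:68863468-68863731), GR density ranged from 1583 to 4309 (median 2642) over the 8 pools and pCREB density from 70.4 to 466 (median 330). All GR libraries were far above all pCREB libraries, and the lowest GR value exceeded the highest pCREB value by more than the whole pCREB range. GR was higher by 9.12-fold (log2 3.19, SE 0.17, adjusted p = 4.72e-34), on 62 to 142 GR reads and 2 to 15 pCREB reads per library. All 8 corticosterone GR libraries had a peak call there, against 5 of the pCREB libraries.

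G2 lies at chr5:74507825-74508182, where GR density was 822 to 2648 (median 1735) and pCREB density 134 to 433 (median 254). The GR excess was 6.32-fold (log2 2.66, SE 0.17, adjusted p = 1.08e-27). At G3, chr10:38286976-38287280, GR density ran from 560 to 3121 (median 1482) and pCREB density from 201 to 493 (median 357), a 4.84-fold excess. The lowest GR library at G3, 4C, was still above all pCREB libraries of that site. G4, chr1:46551532-46551911, had GR densities of 1006 to 2196 (median 1372), and pCREB densities of 0 in 1 library to 404 (median 332), a 4.74-fold excess. The library without a pCREB read at G4 is the shallow 4A, and without pools 2B and 4A the site was still called.

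The other 6 named sites had smaller GR excesses and, in part, more pCREB. G5 (chr10:55683414-55683910) had 4.67-fold higher GR, with GR densities of 1223 to 3463 and pCREB densities of 246 to 751. G6 (chr3:122189279-122189674) had 4.56-fold higher GR, with GR at 959 to 2451 and pCREB at 174 to 607. At G7 (chr3:150581563-150581906) the excess was 4.35-fold, with GR at 1932 to 4430 and pCREB at 495 to 814. G7 and G9 combined high GR with pCREB densities above the median of all tested pairs (410) in every library, and 7 of 8 corticosterone pCREB libraries had a peak call at each of these sites. G8 (chr8:129925976-129926302) had a 4.15-fold excess, and G9 (chr6:11963483-11963936) a 4.14-fold excess, with GR at 1729 to 4003 and pCREB at 497 to 872. G10 (chr20:5608847-5609446) had the smallest excess of the group, 3.77-fold, with GR at 1236 to 2972 and pCREB at 368 to 785. A GR peak was called in all 8 corticosterone GR libraries at each of the 10 sites.

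**Figure D2:**
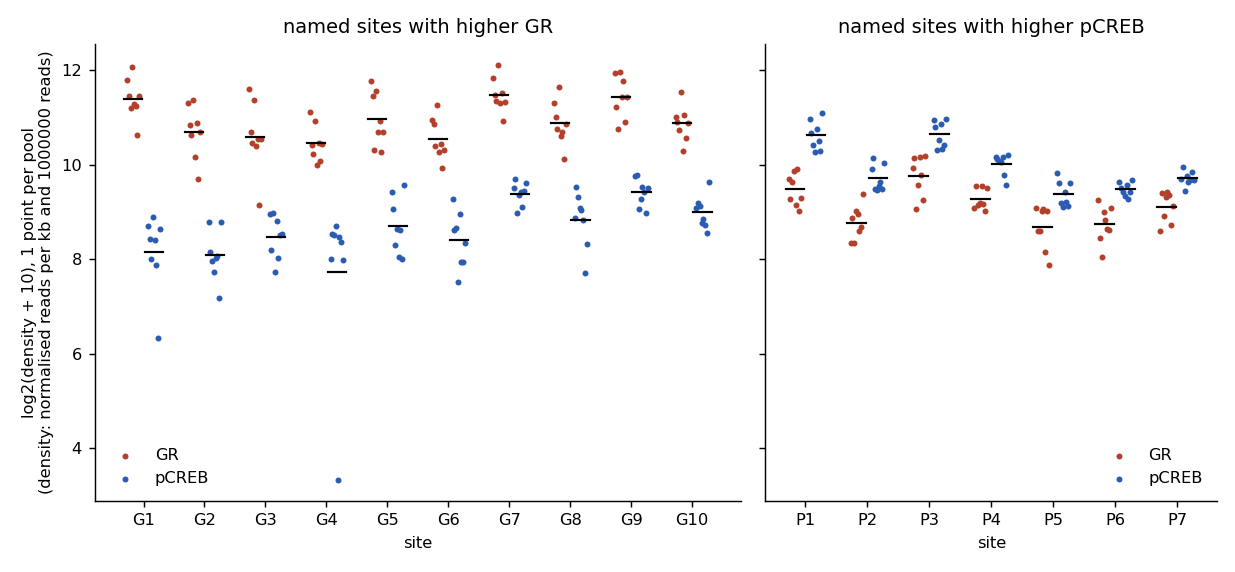
Log2(density + 10) at the named sites, 1 point per corticosterone pool, with GR in red, pCREB in blue and the mean of 8 pools as a bar. At G1 to G10 every GR point lies above every pCREB point of the same site, and at P1 to P7 the order is reversed with smaller gaps; the lowest pCREB point of G4 is a library with 0 reads.

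Only 7 pairs with higher pCREB met the same rule, called P1 to P7. P1 (GR region chr1:226435598-226435949, pCREB region chr1:226435504-226436006) had pCREB densities of 1223 to 2172 (median 1524) and GR densities of 513 to 955 (median 704). Its pCREB excess was 2.17-fold (log2 -1.12, SE 0.15, adjusted p = 1.29e-09), on 30 to 140 pCREB reads and 14 to 35 GR reads. P1 was thus a site of strong pCREB signal with GR also above the typical level, and GR peaks were called in 7 of 8 corticosterone GR libraries. At P2 (chr8:56180744-56181075) pCREB was at 692 to 1123 and GR at 313 to 658, a 1.90-fold excess. P3 (chr4:147965635-147965919) had pCREB at 1264 to 1979 and GR at 527 to 1150, a 1.82-fold excess.

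At the remaining sites of this direction GR libraries lay on both sides of the median over all tested pairs (410), except at P4, where all lay above it. P4 (chr14:105144138-105144529) had pCREB densities of 752 to 1178 and GR densities of 509 to 740, a 1.68-fold excess. Its call was lost in the trained pools alone (adjusted p = 0.0609). P5 (chr7:48549186-48549429) had a 1.65-fold excess (log2 -0.72, SE 0.22, adjusted p = 0.0205) on 6 to 13 GR reads. P5 lost its call without pools 2B and 4A (adjusted p = 0.0508), in 3 of 8 fits that left out a pool (2B, 4B or 4D, adjusted p up to 0.158) and with DESeq2. It was also not called in the untrained or the trained pools alone (adjusted p = 0.356 and 0.165). P6 (chr3:110557597-110558094) is the exception in shape, with a GR region of 498 bp and a pCREB region of 384 bp. Its 1.64-fold excess fell to a log2 ratio of -0.13 (adjusted p = 0.701) with no width correction. P6 also lost its call in the untrained or the trained pools alone (adjusted p = 0.0632 and 0.0916). P7 (chr1:80230910-80231322) had pCREB at 691 to 979 and GR at 379 to 673, a 1.52-fold excess (adjusted p = 0.00435). Its call was lost with widths applied after TMM (adjusted p = 0.0859), and in the untrained or the trained pools alone (adjusted p = 0.0925 and 0.169). Tested against a 1.5-fold change, P1 kept its call and P2 to P7 did not. At all 7 sites pCREB peaks were called in 7 or 8 corticosterone pCREB libraries.

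The width limit of the naming rule left out the strongest pCREB sites, which are given here although they were chosen after their values were seen. At chr12:503395-503687 the GR region was 293 bp and the pCREB region, chr12:503349-504081, 733 bp. pCREB density there was 1799 to 3321 (median 2638) and GR density 357 to 834 (median 575), with a log2 ratio of -2.11 (SE 0.17, adjusted p = 3.21e-20), or 4.32-fold, the only pCREB excess past 4-fold. The next were chr14:10580909-10581163 (3.15-fold), chr6:9482406-9482708 (3.07-fold), chr1:80920716-80921001 (3.03-fold) and chr5:63781489-63781877 (2.85-fold). In each of these 5 pairs the pCREB region was the wider one, and pCREB exceeded GR in all 8 pools. Without width correction the log2 ratios were -3.22, -3.06, -2.17, -2.41 and -2.35. With a wider pCREB region, dropping the correction moves a ratio towards pCREB by arithmetic, so these values are no support for the sites. On the GR side the limit left out chr6:27802105-27802489, whose pCREB region is 209 bp and GR region 385 bp. GR there was 1595 to 4075 and pCREB 189 to 583, with a log2 ratio of 3.11 (adjusted p = 3.9e-29), second only to G1 among called pairs.

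Region shape went with direction. The median GR region was 355 bp and the median pCREB region 324 bp at pairs with higher GR, against 375 and 608 bp at pairs with higher pCREB and 432 and 511 bp at uncalled pairs. Where the GR region was over 1.5 times as wide as its partner, 18 of 28 pairs (64.3%) had higher GR and 0 had higher pCREB. Where it was under 1/1.5 of the partner's width, 23 of 418 (5.50%) had higher GR and 55 (13.2%) had higher pCREB. Without pools 2B and 4A these counts were 17 of 29 and 0, and 20 and 42 of 420. Of the 248 pairs whose pCREB region lay inside the GR region, 27.4% had higher GR, against 2.06% of the 2625 pairs with the GR region inside the pCREB region. Width is set by the same reads that peaks are called from, so it is not independent of the ratio, and its part in the counts was not tested beyond the width settings above. The midpoints of the paired regions lay close together in all classes, with median distances of 27 bp for higher GR, 25.5 bp for higher pCREB and 20 bp for uncalled pairs.

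The share of pairs called differed with the mean density over both antibodies. Among the 1034 pairs with the lowest mean density, 0.677% had higher GR and 1.35% higher pCREB. Among the 1034 with the highest, the shares were 15.5% and 7.16%. More reads give the test more precision, and an excess of either antibody itself raises the mean density, so these shares are a description of where calls lie. Over the 20 chromosomes with at least 100 tested pairs, the share with higher GR ran from 3.09% (chromosome 13) to 9.85% (chromosome 2), and that with higher pCREB from 0.575% (chromosome 9) to 4.78% (chromosome 5); the differences between chromosomes were not tested.

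The vehicle pools give measurements that played no part in the test that called these sites, although their peak calls entered the list of regions. The share of pairs called under corticosterone differed with the number of peak calls in vehicle libraries. Among 162 tested pairs with a GR peak in 7 or 8 of the 8 vehicle GR libraries, 53 (32.7%) had higher GR under corticosterone. The share was 5.35% with 4 to 6 calls, 3.85% with 1 to 3 and 1.14% (2 of 175) with none. The share with higher pCREB was 1.71% (3 of 175) with no vehicle GR calls and 2.74% with 1 to 3. It was 3.43% with 4 to 6 calls and 3.70% (6 of 162) with 7 or 8. These shares lay near the 3.02% of all tested pairs, and no trend is read from them. By vehicle pCREB calls, 7.45% of the 1422 pairs with 7 or 8 vehicle pCREB calls had higher pCREB, against 0.841% with 4 to 6 calls and 0 of 448 with 1 to 3. Pairs with higher GR were also found among those with few vehicle pCREB calls, at 8.71% with 1 to 3 calls against 4.36% with 7 or 8. Without pools 2B and 4A, 58 of 162 pairs (35.8%) with 7 or 8 vehicle GR calls had higher GR, and 89 of 1422 (6.26%) with 7 or 8 vehicle pCREB calls had higher pCREB. The share called was also larger at pairs of high mean density, as given above. The shares by vehicle calls were not separated by density, so they too are a description of where calls lie.

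**Figure D3:**
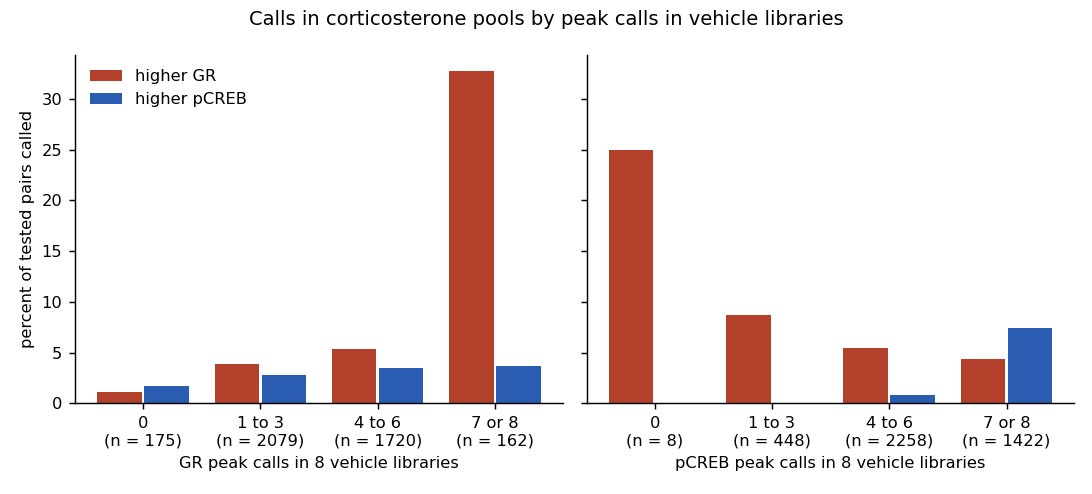
Percent of tested pairs called higher GR (red) or higher pCREB (blue) in corticosterone pools, by the number of GR (left) or pCREB (right) peak calls in the 8 vehicle libraries, with the number of tested pairs under each group. The GR bar reaches 32.7% at 7 or 8 vehicle GR calls, and the pCREB bar 7.45% at 7 or 8 vehicle pCREB calls; the leftmost pCREB group holds 8 pairs. The groups were not matched for mean density.

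The ratios themselves, fitted in the 8 vehicle pools alone, mostly had the same direction. Of 3829 pairs tested in vehicle pools, 81 had higher GR (2.12%) and 140 had higher pCREB (3.66%). Of the 227 sites with higher GR under corticosterone, 199 could be tested in vehicle pools: 165 (82.9%) had a ratio towards GR, 51 were called higher for GR and 1 was called higher for pCREB, with a median log2 ratio of 0.38. Of the 125 sites with higher pCREB, all could be tested, 120 (96.0%) had a ratio towards pCREB and 67 were called, with a median log2 ratio of -0.70. Among uncalled sites 53.1% had a vehicle ratio towards GR. The 51 shared GR calls were 22.5% of the corticosterone list and 63.0% of the vehicle list, and the 67 shared pCREB calls 53.6% and 47.9%. With pools 2B, 4A, 1A and 1B left out, 160 of 198 GR calls (80.8%) and 96 of 104 pCREB calls (92.3%) had the same direction in vehicle pools.

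Named sites showed this site by site. At G1 the vehicle log2 ratio was 2.44 (SE 0.21, adjusted p = 1.05e-17), at G2 2.28 and at G9 1.71, and 9 of the 10 G sites were called higher for GR in vehicle pools too. The exception was G4, at 1.37 with an SE of 0.55 (adjusted p = 0.255). At P1 the vehicle log2 ratio was -1.22 (adjusted p = 1.7e-09), at P2 -1.28 and at P3 -1.03, and 6 of the 7 P sites were called for pCREB, P5 (-0.56, adjusted p = 0.255) being the exception. At chr12:503395-503687, the strongest pCREB site, the vehicle value was -2.13 against -2.11 under corticosterone.

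**Figure D4:**
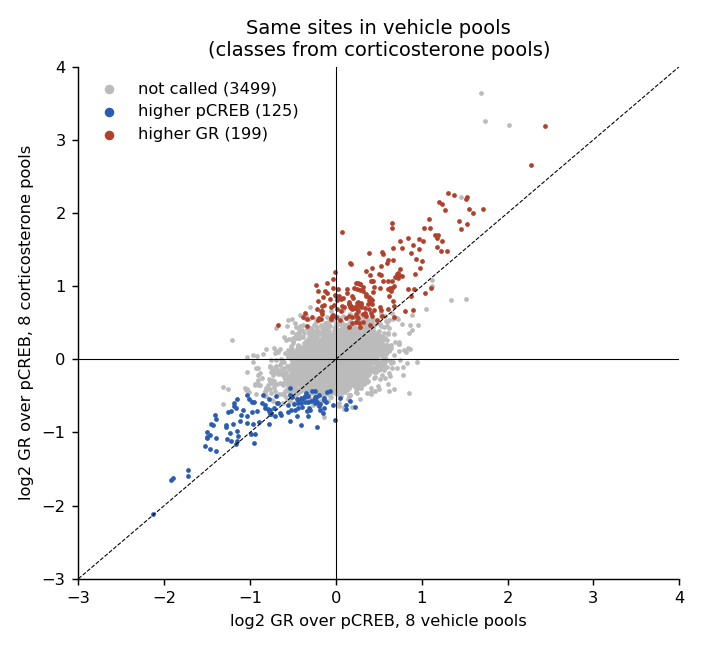
Log2 GR over pCREB in the 8 vehicle pools (horizontal axis) and in the 8 corticosterone pools (vertical axis) for pairs tested in both, coloured by their class under corticosterone, with the line of equality dashed. Pairs with higher GR (199 shown) lie mostly above the line, with a vehicle median of 0.38, and pairs with higher pCREB (125 shown) lie around it. The classes were chosen on the vertical axis, so the position of called pairs against the line is partly set by that choice and shows no treatment effect.

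Whether the ratio of a site differed between corticosterone and vehicle was tested directly, as an antibody-by-treatment interaction in all 32 libraries. At 2 of 4212 tested pairs the interaction was called (0.0475%), while 329 (7.81%) had an unadjusted p under 0.05. DESeq2 called 0. The densities in this paragraph are scaled over all 32 libraries. At chr15:58884552-58885070 GR density was 660 to 2676 (median 1459) under corticosterone and 108 to 811 (median 336) under vehicle, while pCREB density was 317 to 683 and 132 to 482. All but 1 of the corticosterone GR libraries exceeded every vehicle GR library, and the pCREB ranges overlapped. The interaction was 1.68 on the log2 scale (SE 0.34, adjusted p = 0.0306). At chr1:125288347-125288746 GR was 448 to 1550 (median 879) under corticosterone and 197 to 1008 (median 588) under vehicle, and pCREB was 300 to 903 (median 560) and 531 to 1389 (median 824). All these ranges overlapped, and the interaction was 1.14 (SE 0.25, adjusted p = 0.0321). The next by p, chr8:110500321-110500543, had an interaction of 1.59 that was not called (adjusted p = 0.0815).

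The number of interaction calls changed when single pools, each a GR and a pCREB library, were left out. Leaving out 1 pool at a time gave 0 to 31 calls. There were 31 without pool 1B, 8 without 2B, 5 without 3D and 4 without 1D. There was 1 without 3B or 4C, and 0 without 1A, 1C, 2D, 3A, 3C, 4A, 4B or 4D. The counts without 2A or 2C lay within the same range and are not listed. Without the 4 pools that had a library of few peak calls (1A, 1B, 2B and 4A) there were 29 calls. The fit with no replicate block gave 0. The chr15 call failed in 9 of the 16 leave-out fits (adjusted p up to 0.162) and the chr1 call in 10 of 16 (up to 0.321). The median interaction over the 227 sites with higher GR was 0.55, with 219 above 0, and -0.02 over the 125 sites with higher pCREB, against -0.01 over all tested pairs. Those sites were chosen on the corticosterone values that enter the interaction, so that these medians are no test of a treatment effect.

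Untrained and trained corticosterone pools share no rats, so each set of 4 pools shows how far the calls of the other recur. The 4 untrained pools alone gave 191 pairs with higher GR and 49 with higher pCREB, and the 4 trained pools 96 and 53. Of the 188 untrained GR calls that could be tested in trained pools, 183 (97.3%) had the same direction there, and 85 were called, which is 44.5% of the untrained list and 88.5% of the trained one. Their median log2 ratio was 1.16 in the untrained pools that chose them and 0.85 in the trained pools. In the other direction, 93 of 95 trained GR calls had the same direction in untrained pools, with medians of 1.27 in the trained pools that chose them and 1.39 in the untrained pools. Of the 49 untrained pCREB calls, 45 (91.8%) had the same direction in trained pools and 25 were called, or 51.0% of the untrained and 47.2% of the trained list. Of the 53 trained pCREB calls, 51 (96.2%) had the same direction in untrained pools. Over all 4026 pairs tested in both, 49.8% had a ratio towards GR in trained pools. Without 2B and 4A, 143 of 147 untrained GR calls (97.3%) and 32 of 33 untrained pCREB calls (97.0%) had the same direction in the trained pools.

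The ratios of the called sites differed between pools. The median log2 ratio over the 227 sites with higher GR ran from 0.66 in pool 2C to 1.53 in pool 2D, and that over the 125 sites with higher pCREB from -0.92 in 4D to -0.53 in 4B. Pool 2D had a ratio towards GR at all 227 sites, and pool 4A, with the largest spread of ratios over all tested pairs (SD 0.96, against 0.59 in 4D), at 192. These are the same values that chose the sites. Over all 4136 tested pairs the log2 ratios of any pair of pools correlated at 0.123 to 0.430 (median 0.242 over 28 comparisons), a description across sites in which the pools of a condition share a lane.

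**Figure D5:**
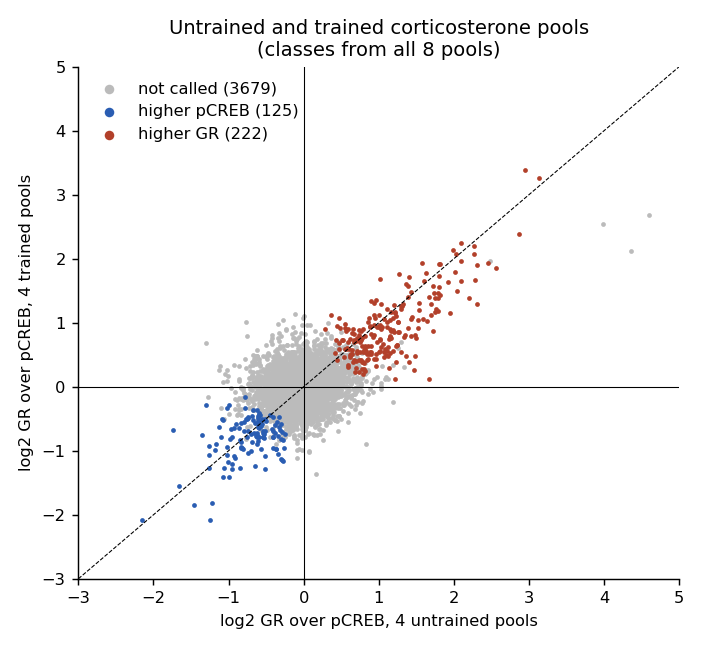
Log2 GR over pCREB in the 4 untrained (horizontal axis) and the 4 trained corticosterone pools (vertical axis) for pairs tested in both, coloured by their class in all 8 pools, with the line of equality dashed. The classes were called on the same 8 pools, so the matching signs of called pairs (222 higher GR, 125 higher pCREB) are largely set by that choice; the uncalled pairs form a cloud around 0.

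A difference in the ratio between untrained and trained pools was called at 1 site only. The antibody-by-training interaction was called at 1 of 4136 tested pairs (0.0242%), and DESeq2 called 0. An unadjusted p under 0.05 was found at 193 pairs (4.67%), close to the share that this threshold passes by chance. Densities in this paragraph and the next are scaled over all 32 libraries, while the interaction was fitted in the 16 corticosterone libraries. At chr16:46750896-46751503, GR densities were 502, 423, 451 and 420 in untrained pools 2A to 2D and 319, 123, 233 and 253 in trained pools 4A to 4D. The pCREB densities were 272, 413, 489 and 450 in untrained and 597, 563, 584 and 578 in trained pools. GR was lower and pCREB higher in every trained pool than in every untrained one. The interaction was -1.53 on the log2 scale (SE 0.34, adjusted p = 0.0445), and it was no longer called in 6 of 8 fits that left out a pool, without pools 2B and 4A (adjusted p = 0.154), with no replicate block (adjusted p = 0.133) or with library totals alone (adjusted p = 0.295).

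The next sites by p did not pass. At chr10:75291146-75291478 the training interaction was 1.99 (adjusted p = 0.547), with GR at 115, 182, 137 and 167 in untrained and 206, 421, 396 and 393 in trained pools, and with a pCREB density of 0 in pool 4A. At chr13:108409114-108409560 it was 1.38 (adjusted p = 0.547), with GR at 228, 67.6, 255 and 199 in untrained and 357, 439, 401 and 448 in trained pools. The GR groups did not overlap at either site, while pCREB at chr13:108409114-108409560 stayed between 316 and 453 in all 8 pools.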

How the data were processed

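Chromatin immunoprecipitation followed by sequencing was done by the authors on pooled hippocampal chromatin, with 15 PCR cycles and single reads of 51 and 65 bp, per the labels' protocols. The submitters' processing notes name HTSeq 0.6.1-1, bedtools 2.26.0, MACS2 2.1.1.20160309 and BWA 0.7.10, for build rn6, and settings not given in the sources used here are left out. The authors deposited raw read counts per region and library, in separate GR and pCREB lists, with the peak calls merged into each region. Regions are listed because of calls in these same libraries.

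Counts were divided by relative region width, library totals and TMM factors were computed on the scaled counts, and raw counts were fitted with both as offsets in edgeR 4.0.16 (R 4.3.3; robust quasi-likelihood, filterByExpr by antibody, Benjamini-Hochberg over all tested pairs). Densities are width-scaled reads per kb and 1000000 effective reads, with a pseudocount of 10 on log scales. Pool is a block because the protocol splits each pool between both antibodies; after removing condition means, GR and pCREB libraries of a pool correlated at -0.04 to 0.15 (median 0.05) over pairs, and those of other pools at -0.13 to 0.10 (median -0.02). DESeq2 1.42.0 was an alternative, and depths were compared with scipy 1.17.1. The tests were tested on simulated data. No duplicates were found among the corticosterone libraries of a condition. There, chi-square divided by its degrees of freedom was at least 1.73 (GR) and 1.32 (pCREB) in 12 comparisons each. Vehicle libraries, and libraries of different conditions, were not compared in this way. A library's own count column was highest at its peaks for 15 of 16 GR and 16 of 16 pCREB libraries.

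Named sites were the called pairs with above-median signal, no overlap between antibodies and widths within 1.5 times, at most 10 per direction; for interactions, the 3 with the smallest p. Members, lists and rules were chosen with earlier results of these data known. Gene lists and sequence motifs set out for the analysis could not be applied, since the annotation at hand is of build GRCr8; pools 2B, 4A, 1A and 1B were left out in alternatives chosen after seeing the data.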

Additional observations from a re-analysis of the deposited data

Results flagged for a closer look

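At chr10:38286976-38287280 (G3), GR of trained pool 4C had a density of 560, far from the other trained pools; of 72 groups of 4 libraries checked with Dixon's test it was the only group with such a library, and chance gives about 1 in 20. The GR to pCREB ratio differed between untrained and trained pools at chr16:46750896-46751503 (interaction -1.53 on the log2 scale). It differed between corticosterone and vehicle pools at chr15:58884552-58885070 (interaction 1.68) and chr1:125288347-125288746 (1.14). Each of the 3 interactions rests on a test of the difference itself, and each lost its call when single pools were left out, as given above.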

How the results depend on the processing

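The 10 G sites kept their direction and call under every alternative that included them; G1, G4 and G9 are not among the pairs with closely similar widths, and G5 is not in the stricter peak list. The G sites were chosen for large ratios without overlap in these same libraries, so that they kept their calls is largely set by that choice. Over the 17 named sites, 411 of 433 values stayed on the same side of the threshold, 22 lost the call and 0 changed sign. All 22 were P sites. The settings with adjusted p under 0.01 and against 1.5-fold repeat the main log2 ratio, so its sign could not change there. The 3 called interactions kept their call in 20 of 55 refits and changed sign in 0; 3 refits of an uncalled one gained a call. Leaving out 1 pool at a time gave 179 to 246 pairs with higher GR, 88 to 120 with higher pCREB, 0 to 1 training interactions, 0 to 31 treatment interactions and a depth difference of -0.51 to -0.27. The fit with no replicate block gave 197 and 101 pairs and 0 interactions of either kind. With DESeq2 the counts were 166 and 67 (162 and 67 of them also edgeR calls), with 0 interactions. Widths and totals moved the counts as given in the report: 178 and 188 without TMM (0 training interactions), 354 and 396 without widths, 531 and 48 with widths after TMM, 141 and 54 with closely similar widths. Stricter tests gave 172 and 73 (adjusted p under 0.01) and 80 and 17 (against 1.5-fold). Untrained pools alone gave 191 and 49, trained pools alone 96 and 53. Without pools 2B and 4A there were 0 training interactions, and without 1A, 1B, 2B and 4A 29 treatment interactions; other causes of these moves were not tested. A median of 7 reads per pair in pCREB 4A and 12 in GR 2B limits what single pairs can show. The smallest called log2 ratios were 0.44 towards GR and -0.40 towards pCREB, and smaller ones in each direction were not called.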

Other observations

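At 4 pairs the ratio was past 4-fold but not called, and GR differed widely between pools; these sites were chosen after their values were seen, and densities are scaled over all 32 libraries. At chr7:144015886-144017606 the log2 ratio was 3.25 (SE 1.22, adjusted p = 0.206), with GR densities of 40425 in pool 2B and 26132 in 4B but 371 in 2C and 652 in 4C, and pCREB densities of 103 to 2275. At chr7:144038895-144039988 the log2 ratio was 3.63 (SE 1.16, adjusted p = 0.132), with GR at 22124 in 2B, 14951 in 4B, 167 in 2C and 302 in 4C. At chr7:144040559-144041164 it was 3.20 (SE 1.05, adjusted p = 0.143), with GR at 21729 in 2B and 226 in 2C. These 3 regions lie close together on chromosome 7, and pools 2B and 4B were high and 2C and 4C low at each. In vehicle pools GR was also high in 1B, 1D and 3D, and pCREB in 3B (19491 at chr7:144015886-144017606) and 3D (6962). High GR values thus occurred in several libraries of both treatments, at chr7:144015886-144017606 also in 2D (5423) and 4D (6983). The high pCREB values were in vehicle pools 3B and 3D, against at most 2275 under corticosterone. At chr1:265469322-265469937, on another chromosome, the log2 ratio was 2.22 (SE 0.60, adjusted p = 0.0748), with GR at 13039 in 2A, 11093 in 2B, 426 in 2C and 382 in 4C, and pCREB in vehicle pools highest in 3B (8660) and 3D (7005).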
